A study of Mus musculus with 24 samples.

Results

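The genes described here are 10 imprinted genes that regulate growth in early life, namely H19, Igf2, Dlk1, Meg3, Peg3, Plagl1, Mest, Nnat, Grb10 and Ndn. They were chosen by name and were found by their Ensembl identifiers among the 49671 genes of the count table. All 10 passed the filter on low counts that left 19691 genes for testing.

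RNA sequencing of polyadenylated RNA was performed on 24 libraries, 4 in each of 6 groups. Neural stem cells (NSC) were kept in FGF and EGF, each at 20 ng/ml, and the stem cell-derived astrocytes (AGES) were made from them with BMP4 at 20 ng/ml for 3 to 5 days. The AGES medium is described without FGF and EGF and the culture surface was coated differently, so the effect of BMP4 and of these changes cannot be told apart. Both come from 1 embryonic stem cell line of C57Bl/6 N background, GSC-5003, so that their replicates are independent cultures at passages 50 to 60 of that line and not separate animals. Primary astrocytes were isolated with magnetic beads against ACSA-2 from the brains of C57BL/6J mice, aged 4 to 8 days for neonatal astrocytes (neoAC) and 100 to 140 days for adult astrocytes (AdAC). Each isolation pooled 2 mice, sexes were mixed, and cells were either frozen at once (direct) or kept in AstroMACS medium for 7 to 10 days (CellC). Age goes together with the dissociation kit, since adult brains passed through a kit with debris and red blood cell removal. Olfactory bulb and cerebellum are said to have been removed for the direct isolation of adult cells, and cerebral tissue without meninges was used for neonatal cells. The labels name no transgene or deletion in any group, and the strains are inbred, so the parental alleles cannot be told apart in these counts.

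An imprinted gene is read mainly from 1 parental copy, chosen by DNA methylation that was laid down in the germ line at a control region, though some are read from both copies in particular tissues, as is known for Igf2 in the choroid plexus and meninges and for Dlk1 in the neural stem cell niche. Many such genes are switched on in the fetus and turned down after birth, when growth slows, and several lie in clusters where a protein-coding gene and a long non-coding RNA are read from opposite parental copies. Paternally expressed genes such as Igf2, Dlk1, Peg3, Plagl1 and Mest tend to promote growth or to keep precursor cells, whereas the maternally expressed RNAs H19 and Meg3 and the signalling adaptor Grb10 tend to restrain it. In the brain, Igf2 is known to come largely from the choroid plexus and the meninges, and Dlk1 is known as a factor of the neural stem cell niche.

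Levels are library-scaled counts (CPM), made comparable with edgeR's TMM factors, given as mean ± SD of 4 libraries, and library totals lay between 27904126 and 37997368 counts. At this depth 3 counts in a library correspond to about 0.0846 to 0.0997 CPM in the group means, and a group with at most 3 counts in each library is called at the floor. Such floors cover counting error only. The labels were checked with cell type markers. Summed over 10 astrocyte markers, the level was 16246 to 16965 CPM in AdAC direct but 1002 to 1521 CPM in AdAC CellC, where Slc1a2, the main glutamate transporter of astrocytes, stood at 49.9 CPM. AdAC direct also held 22468 to 25371 CPM of 8 oligodendrocyte lineage markers, against 95.3 to 149 CPM in neoAC direct. In cultures these markers were at 3637 to 9368 CPM in AdAC CellC, above its astrocyte sum, and at 128 to 251 CPM in neoAC CellC. They thus move with both age comparisons and with the culture of adult cells, and their part in the results was not tested. In bulk RNA, fewer cells of a type and less RNA per cell cannot be told apart.

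Several of these genes host microRNAs. The mature arms of the microRNA inside H19 and of the one inside Mest are given below because both host transcripts were far higher in neonatal than in adult direct isolates and rose in adult cultures. The seed, bases 2 to 8, is in capitals, and the sequences are those of RefSeq on GRCm38.p6. The 4 arms share no seed. Libraries of polyadenylated RNA do not measure mature microRNAs, and the hairpin genes themselves had 0 counts (miR-675) and 10 counts (miR-335) over the 24 libraries.
mmu-miR-675-5p: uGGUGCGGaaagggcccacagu
mmu-miR-675-3p: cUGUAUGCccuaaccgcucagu
mmu-miR-335-5p: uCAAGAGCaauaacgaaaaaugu
mmu-miR-335-3p: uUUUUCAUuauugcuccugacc
The H19 arms lie at chr7:142577112-142577133 and chr7:142577078-142577099 on the minus strand, in an exon of H19. The Mest arms lie at chr6:30741314-30741336 and chr6:30741354-30741375 on the plus strand, in an intron.

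Promoter sequences were taken from RefSeq (GRCm38.p6) as the 250 bases before each annotated start, and 9 of the 10 genes had 16 such windows, with H19 missing from the table. Shown are 2 genes that were nearly silent in NSC and AGES (Meg3 and Nnat) and 1 that was not (Peg3). Capitals mark matches to the motifs searched on both strands: the TATA box TATAAA, the CRE TGACGTCA, the NRF1 core GCATGCGC, the CCAAT box CCAAT, the GC box GGGCGG and the YY1 core CCATNTT.
Meg3: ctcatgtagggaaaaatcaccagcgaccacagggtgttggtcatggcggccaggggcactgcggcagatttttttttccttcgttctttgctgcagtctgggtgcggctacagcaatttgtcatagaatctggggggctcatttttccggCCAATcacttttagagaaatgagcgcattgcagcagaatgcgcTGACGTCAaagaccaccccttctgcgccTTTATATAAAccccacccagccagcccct
Nnat: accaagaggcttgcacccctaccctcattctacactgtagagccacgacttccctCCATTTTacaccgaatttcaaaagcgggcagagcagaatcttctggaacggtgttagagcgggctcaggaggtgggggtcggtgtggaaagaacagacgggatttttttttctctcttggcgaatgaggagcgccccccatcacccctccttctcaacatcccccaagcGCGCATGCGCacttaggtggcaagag
Peg3: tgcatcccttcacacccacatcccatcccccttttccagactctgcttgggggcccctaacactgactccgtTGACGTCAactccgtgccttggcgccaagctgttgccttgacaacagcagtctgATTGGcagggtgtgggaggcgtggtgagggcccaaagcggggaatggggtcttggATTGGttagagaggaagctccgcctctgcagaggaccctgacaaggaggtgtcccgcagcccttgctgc
The windows are chr12:109540746-109540995 (plus strand) for Meg3, chr2:157559828-157560077 (plus) for Nnat and chr7:6730420-6730669 (minus) for Peg3. Meg3 has a second window further into the gene, at chr12:109545148-109545397, which held none of these motifs and is not shown. The CRE, the site of cAMP-responsive factors, was found in the Meg3 and Peg3 windows shown and in 1.55% of all 32851 windows of this length. The NRF1 core was found in the Nnat window, where matches on the 2 strands overlap, against 2.26% of all windows. It was also found in the RefSeq window of Ndn, which lies inside the Gencode transcript and is not shown. Meg3 also has a TATA box, again matched on both strands with overlap (12.4% of all windows), and Meg3 and Peg3 have CCAAT boxes (33.8%). The YY1 core, present in the Nnat window, occurs in 12.4% of windows, and the GC box, which is in none of these 3, in 32.7%. The motifs were chosen after the sequences were read. A match is a run of letters and not a measured binding site.

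**Figure D1:**
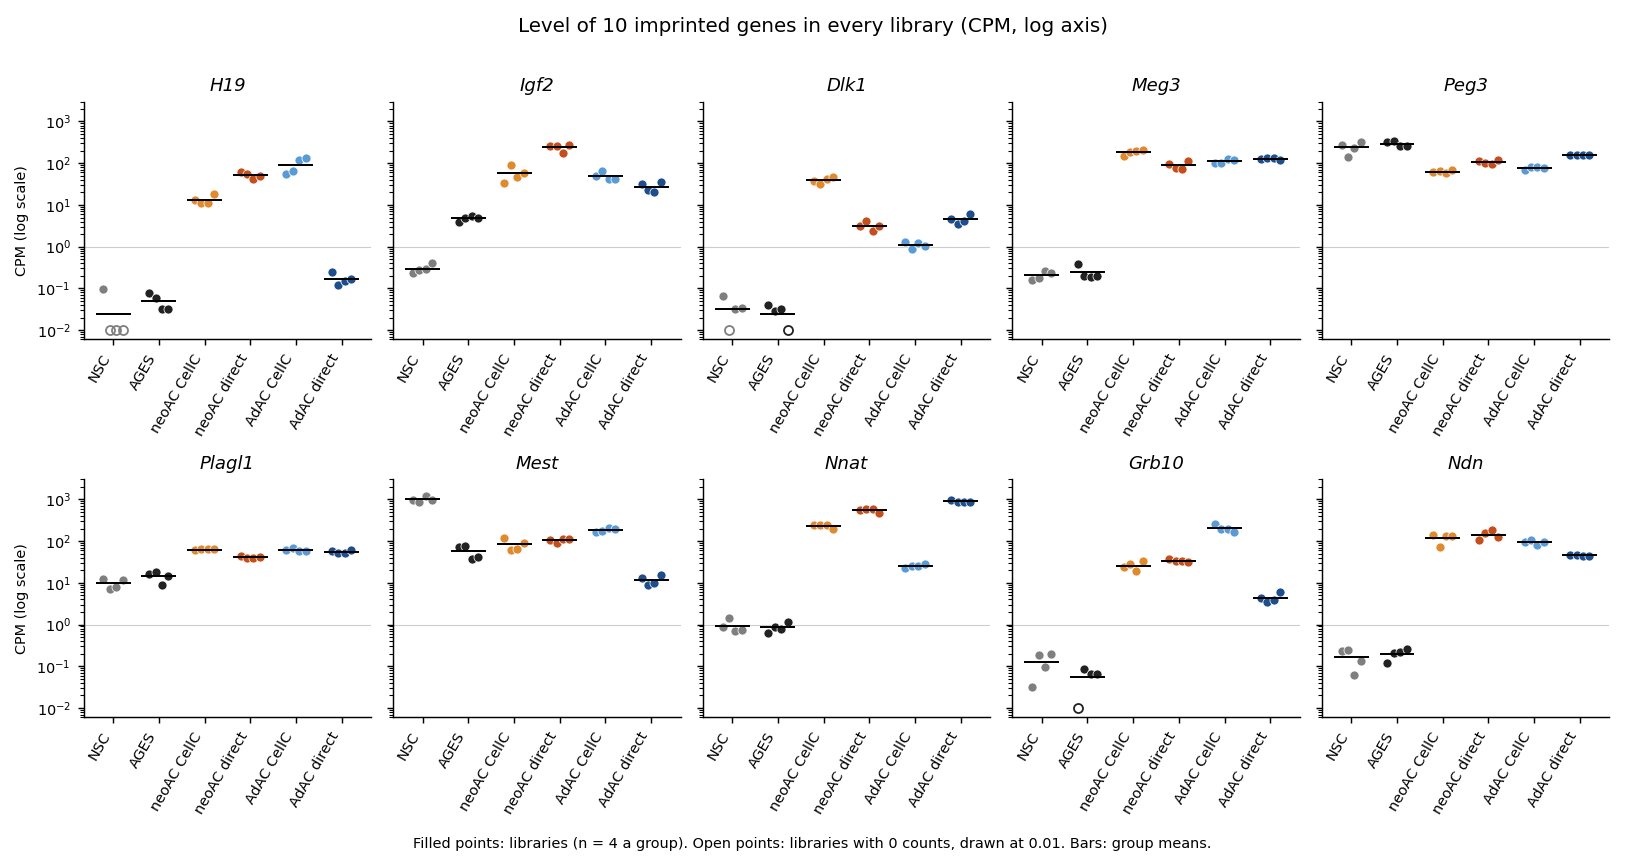
Level of each of the 10 genes in CPM on a log axis, for the 4 libraries (points) of each of the 6 groups, with the mean as a bar. Libraries with 0 counts are open points drawn at 0.01. H19, Dlk1, Meg3, Nnat, Grb10 and Ndn sit at or near 1 CPM or below in NSC and AGES and higher in primary astrocytes, except H19 in AdAC direct, whereas Mest is highest in NSC at 996 CPM and Peg3 is highest in AGES at 296 CPM.

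Most of these genes were nearly silent in stem cells and in the astrocytes made from them, but not in 1 or more groups of primary astrocytes. H19 was low in AdAC direct as well, with a mean of 0.172 CPM. H19, Dlk1, Meg3, Nnat, Grb10 and Ndn had means under 1 CPM in NSC and in AGES but at least 10 CPM in 1 or more primary groups, so 6 of the 10 genes showed this pattern. Nnat was nearest to the limit of 1 CPM, with means of 0.943 and 0.861 CPM, and Igf2, at 4.74 CPM in AGES, was nearest on the other side. Among all tested genes that reach 10 CPM in a primary group, it held for 10.4% (1266 of 12141). The remaining 4 genes, Igf2, Peg3, Plagl1 and Mest, were above 1 CPM in NSC, in AGES or in both.

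Against neoAC CellC, AGES had 9 genes lower and 1 gene higher at an edgeR adjusted p under 0.05, where 74.6% of all tested genes were called, 40.5% as lower and 34.1% as higher. The median log2 difference of the 10 genes was -8.00, or -7.54 with the genes at the floor set to their bound, against -0.07 for all genes tested. Against AdAC CellC the counts were again 9 lower and 1 higher, where 76.2% of all genes were called (45.2% lower, 31.0% higher), with a median of -5.08 (-4.18 with bounds) against -0.23 for all genes. The 1 gene higher in AGES in both was Peg3. More than 3 log2 units separated AGES from each kind of culture for 7 genes, while 21.1% of all genes passed that limit against neoAC CellC and 22.2% against AdAC CellC. Both comparisons use the same AGES libraries.

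Between NSC and AGES, 2 genes rose and 1 fell, where 65.7% of all tested genes were called, 31.7% as higher and 34.0% as lower. H19, Dlk1, Meg3, Grb10 and Ndn had 0 to 10 counts a library in both groups, too few to show most differences, so the 3 calls of 10 are not set against that share. Igf2 and Plagl1 rose and Mest fell. The fall of Mest and the rise of Igf2 left no overlap between the libraries.

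**Figure D2:**
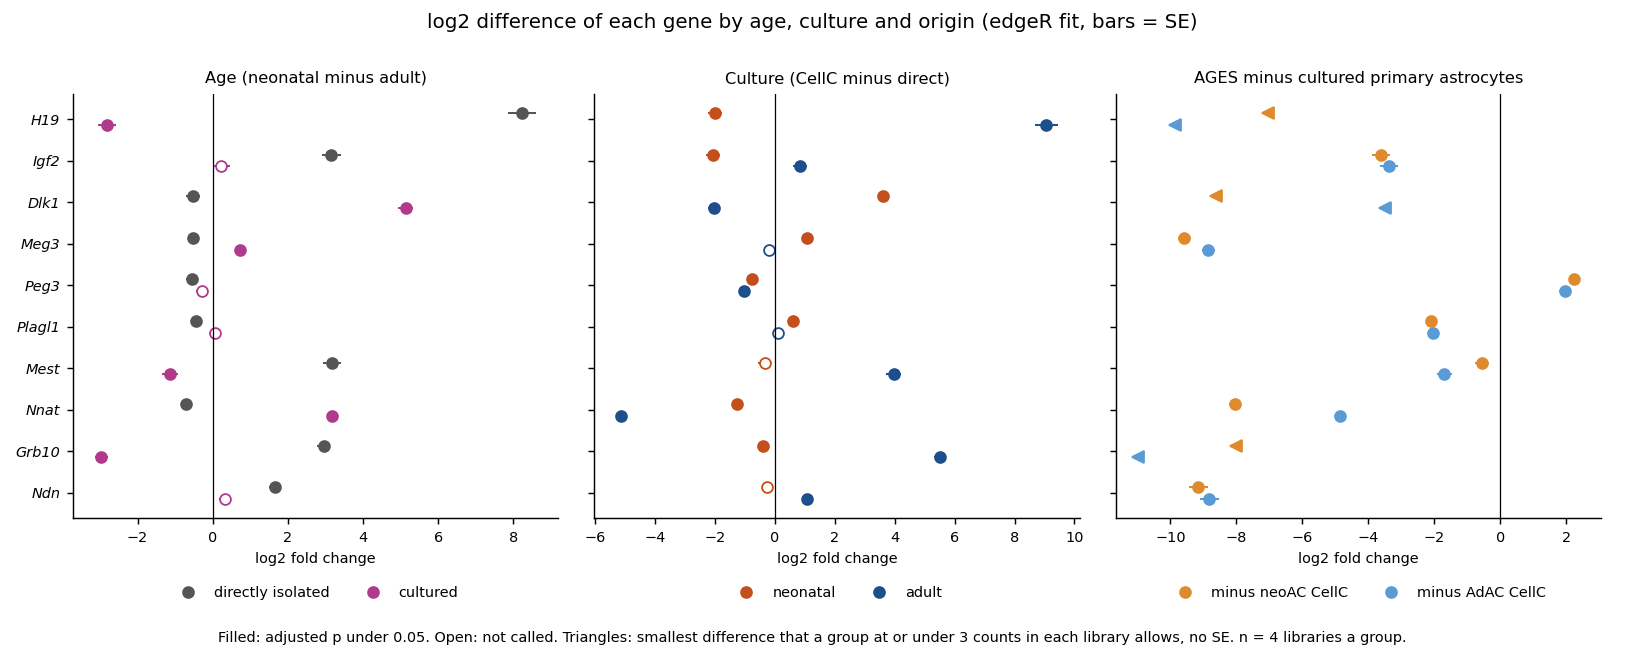
log2 difference of each gene (horizontal axis, point with SE from the edgeR fit of 24 libraries) by age, by culture and between AGES and cultured primary astrocytes. Filled points have an adjusted p under 0.05 and triangles mark the smallest difference a group at the floor allows. H19, Mest and Grb10 are higher in neonatal cells when directly isolated and lower when cultured, Dlk1, Meg3 and Nnat show the opposite, and Peg3 is the only gene higher in AGES.

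All 10 genes differed between the ages in directly isolated astrocytes, in both directions. Of the 10 genes, 5 were higher in neoAC direct than in AdAC direct (H19, Igf2, Mest, Grb10 and Ndn) and 5 lower (Dlk1, Meg3, Peg3, Plagl1 and Nnat), where 71.4% of all tested genes were called, 35.0% as higher and 36.4% as lower. The 5 that were higher differed by 1.65 to 8.24 on the log2 scale, the 5 that were lower by 0.44 to 0.70. Those with an absolute difference over 1 were 5 of the 10, where 39.1% of all tested genes passed both limits. The median difference was 0.61, against 0.00 for all genes.

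After culture the ages ranked differently. Dlk1, Meg3 and Nnat were higher in neoAC CellC than in AdAC CellC, H19, Mest and Grb10 were lower, and Igf2, Peg3, Plagl1 and Ndn did not pass the test. These are 6 calls of 10, where 63.8% of all tested genes were called, 28.5% as higher and 35.2% as lower. All 6 had the opposite direction in directly isolated cells. No share of all tested genes is given for such a change of direction, so this count is a description only. The test of that change itself, the interaction of culture and age, called 9 of the 10 genes, where 68.6% of all genes were called. The interaction was positive for 4 genes and negative for 5, against 33.2% and 35.4% of all genes, and Peg3 was not called (log2 difference 0.28 ± 0.21 SE, edgeR adjusted p = 0.25) except in the fits of the compared groups alone. For Plagl1 the interaction was small (0.49 ± 0.21, edgeR adjusted p = 0.0439) and its call was lost when any of 12 libraries was left out in turn, with log2 differences of 0.43 to 0.50.

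Culture of neonatal astrocytes was followed by higher Dlk1, Meg3 and Plagl1 and lower H19, Igf2, Peg3, Nnat and Grb10, while Mest and Ndn did not pass the test. These are 8 calls of 10, where 65.7% of all genes were called, 34.4% as higher and 31.3% as lower. With an absolute log2 difference over 1 as well, they were 5 of 10, where 32.6% of all genes passed. The call of Grb10 (log2 difference -0.40 ± 0.16, edgeR adjusted p = 0.029) was lost without neoAC CellC replicate 1 or 3 or neoAC direct replicate 1, and under scaling by library size alone it was -0.17. Culture of adult astrocytes was followed by higher H19, Igf2, Mest, Grb10 and Ndn and lower Dlk1, Peg3 and Nnat, again 8 of 10, where 78.0% of all genes were called, 38.8% as higher and 39.2% as lower. Meg3 and Plagl1 did not pass the test there.

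H19 and Igf2 are neighbours on chromosome 7 that share enhancers. Igf2 (chr7:142650766-142666816, minus strand, GRCm38) encodes insulin-like growth factor 2, the main fetal growth factor, and is paternally expressed. H19 (chr7:142575529-142578143, minus strand) is a maternally expressed non-coding RNA. In the libraries of neoAC direct H19 was at 61.7, 55.1, 42.8 and 50.1 CPM, and in those of AdAC direct at 0.248, 0.124, 0.149 and 0.169 CPM, which rests on 4 to 7 counts a library. The 2 groups lay far apart, with a ratio of means of 304 (log2 difference 8.24 ± 0.37 SE, edgeR adjusted p = 2.93e-15).

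Cultured adult astrocytes had the highest mean H19 of the 6 groups. Their 4 libraries were at 55.3, 64.1, 121 and 131 CPM, 540-fold above AdAC direct (log2 9.07 ± 0.37, edgeR adjusted p = 3.3e-16). Replicates 3 and 4 of AdAC CellC lay above replicates 1 and 2, but the lowest of them was still above all 4 libraries of neoAC CellC, at 12.8, 11, 10.8 and 18.1 CPM. The libraries of AdAC CellC overlapped with those of neoAC direct, and the difference passed the test (log2 -0.83 ± 0.22 for neoAC direct minus AdAC CellC, edgeR adjusted p = 0.00164) but not with the replicate block (-0.61). In neonatal cells culture went the other way, and H19 was 3.97-fold lower in neoAC CellC than in neoAC direct (log2 -1.99 ± 0.23, edgeR adjusted p = 5.73e-08). The interaction was -11.06 ± 0.44 (edgeR adjusted p = 6.3e-16). NSC had 3, 0, 0 and 0 counts of H19 and AGES 1 or 2 counts a library, both at the floor, and AGES was at least 132-fold lower than neoAC CellC and at least 934-fold lower than AdAC CellC. In the order AdAC CellC, neoAC direct, neoAC CellC, AdAC direct, AGES, NSC, the last 3 did not pass the test between neighbours (edgeR adjusted p = 0.119 and 0.616). AdAC direct and AGES had no overlapping libraries, however, and were called different by DESeq2 (log2 -1.83) and in the fits of those groups alone (-1.69, and -1.68 with the block). NSC was called lower than AdAC direct, by at least 1.79-fold (edgeR adjusted p = 0.036). That call was lost in 7 of 31 alternatives, and its fitted log2 difference ran from -2.25 without NSC replicate 2 to -5.50 without NSC replicate 1.

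Igf2 was highest in neoAC direct, at 265, 265, 171 and 279 CPM, against 31.6, 22.5, 20.9 and 35.2 CPM in AdAC direct. The ranges were well apart and the means differed 8.91-fold (log2 3.16 ± 0.25, edgeR adjusted p = 9.56e-11). Culture brought the ages together, with 33.4, 91.8, 47.2 and 59.4 CPM in neoAC CellC and 49.7, 64.6, 41.1 and 41.9 CPM in AdAC CellC. Here the libraries overlapped, and the difference of 0.23 ± 0.23 (edgeR adjusted p = 0.385) was -0.075 without neoAC CellC replicate 2. Igf2 had the largest rise of the 10 genes from NSC to AGES. NSC had 0.228, 0.273, 0.286 and 0.401 CPM and AGES 3.86, 4.81, 5.32 and 4.97 CPM, a 15.9-fold difference (log2 3.99 ± 0.43, edgeR adjusted p = 1.66e-08). AGES still had 12.2-fold less than neoAC CellC and 10.4-fold less than AdAC CellC. All neighbours in the order neoAC direct, neoAC CellC, AdAC CellC, AdAC direct, AGES, NSC differed except both cultures.

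The ratio of H19 to Igf2 counts varied between groups more than within them in adult cells. It was 0.179 to 0.25 in neoAC direct and 0.12 to 0.383 in neoAC CellC, which overlap. In AdAC direct it was 0.00481 to 0.00787, below all neonatal libraries, and in AdAC CellC 0.991 to 3.14, above all of them. In AGES, where Igf2 was present at 99 to 166 counts, it was 0.00602 to 0.0202.

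**Figure D3:**
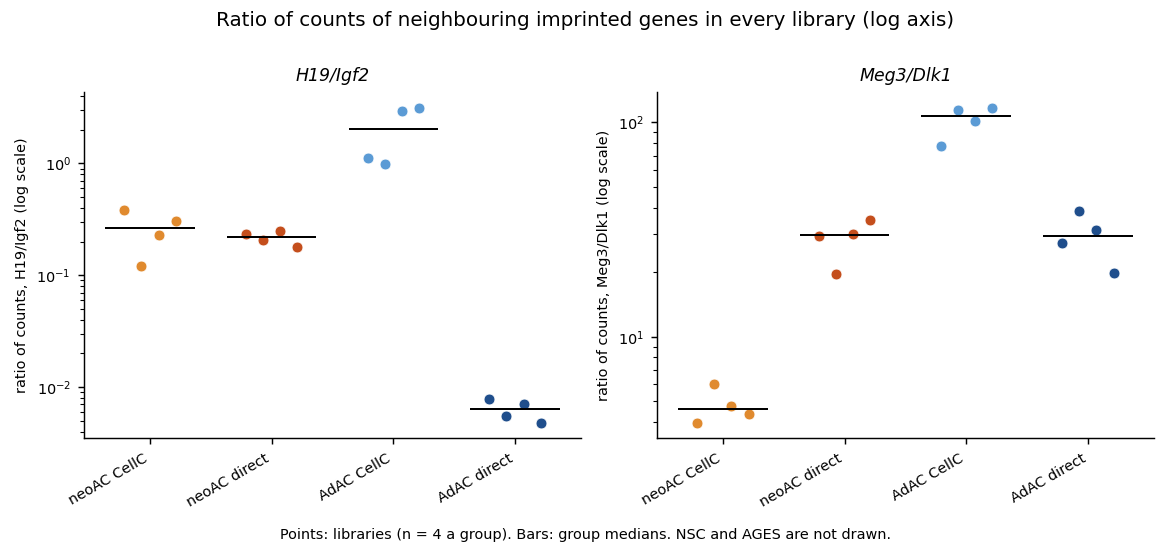
Ratio of counts of H19 to Igf2 (left) and of Meg3 to Dlk1 (right), on a log axis, in each of the 4 libraries of the 4 primary groups, with the median as a bar. H19/Igf2 has a median of 0.0063 in AdAC direct and 2.03 in AdAC CellC, and Meg3/Dlk1 a median of 4.57 in neoAC CellC and 108 in AdAC CellC.

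Dlk1 and Meg3 form the corresponding pair on chromosome 12. Dlk1 (chr12:109452823-109463336, plus strand) encodes a transmembrane Notch-related protein that keeps precursor cells undifferentiated and is paternally expressed. Meg3 (chr12:109541001-109571726, plus strand) is a maternally expressed non-coding RNA, whose first promoter window is shown above. Dlk1 was highest in neonatal cultures. Its level was 37.8, 31.8, 40.9 and 46.9 CPM in neoAC CellC, against 3.18, 4.01, 2.38 and 3.16 CPM in neoAC direct. No library overlapped, and culture gave a 12.4-fold higher mean (log2 3.62 ± 0.19, edgeR adjusted p = 1.42e-14). In adult cells culture lowered it, from 4.65, 3.46, 4.22 and 6.03 CPM in AdAC direct to 1.32, 0.874, 1.25 and 1.02 CPM in AdAC CellC (4.11-fold, log2 -2.04 ± 0.20, edgeR adjusted p = 1.55e-09). The cultures of the 2 ages thus differed 35.2-fold. The small difference between directly isolated cells, -0.52 ± 0.19 (edgeR adjusted p = 0.0141), had overlapping libraries and was not called without neoAC direct replicate 3 (-0.41) or AdAC direct replicate 4 (-0.34). Dlk1 was at the floor in NSC and AGES with 0 to 2 counts a library, at least 395-fold below neoAC CellC in AGES. Apart from AGES and NSC, all neighbours in its order neoAC CellC, AdAC direct, neoAC direct, AdAC CellC, NSC, AGES differed.

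Meg3 varied little among primary astrocytes and was nearly absent from stem cell-derived cells. It was at 150, 191, 195 and 205 CPM in neoAC CellC, 94.5, 78.6, 71.4 and 111 CPM in neoAC direct, 102, 99.6, 126 and 120 CPM in AdAC CellC and 127, 133, 133 and 120 CPM in AdAC direct. The highest and the lowest of these groups differed 2.08-fold (log2 1.06 ± 0.12, edgeR adjusted p = 1.5e-08). NSC had 0.163, 0.182, 0.255 and 0.234 CPM and AGES 0.39, 0.203, 0.192 and 0.197 CPM, that is 5 to 10 counts a library, which placed AGES 754-fold below neoAC CellC (log2 -9.58 ± 0.20, edgeR adjusted p = 4.57e-23). NSC and AGES did not differ beyond their spread (0.20 ± 0.40, edgeR adjusted p = 0.70), nor did AdAC direct and AdAC CellC (-0.20 ± 0.12, edgeR adjusted p = 0.121, though called under 5 alternatives), and its order was neoAC CellC, AdAC direct, AdAC CellC, neoAC direct, AGES, NSC. The step from AdAC CellC to neoAC direct (log2 -0.33 ± 0.12 for neoAC direct minus AdAC CellC, edgeR adjusted p = 0.0128) had overlapping libraries and was not called in 8 of 31 alternatives, neoAC direct replicate 3 (-0.24) and AdAC CellC replicate 3 (-0.27) each left out among them. Meg3 RNA shares 6.79% of its exon bases with a gene on the opposite strand that had 1 count in all libraries. The ratio of Meg3 to Dlk1 counts was 3.97 to 6.00 in neoAC CellC and 77.4 to 117 in AdAC CellC, with both direct groups between, at 19.6 to 35.2 (neonatal) and 19.8 to 38.6 (adult).

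Mest, Peg3 and Plagl1 were the genes that stem cells expressed. Mest (chr6:30723547-30748465, plus strand) encodes a hydrolase of the endoplasmic reticulum and is used as a marker of embryonic mesoderm. NSC had 955, 873, 1184 and 974 CPM, and AGES 71.4, 77.4, 36.8 and 41.8 CPM, so that the level was 17.5-fold lower in AGES (log2 -4.13 ± 0.24, edgeR adjusted p = 4.37e-13). Dividing-cell markers fell with it, with the sum of 8 of them at 3450 to 3537 CPM in NSC and 13.2 to 16.6 CPM in AGES, and their part in the difference was not tested. In directly isolated cells Mest was at 109, 90.6, 110 and 112 CPM in neonatal and 12.7, 8.86, 9.98 and 15.5 CPM in adult libraries, an 8.96-fold difference (log2 3.16 ± 0.24, edgeR adjusted p = 4.73e-11). Cultured adult astrocytes reached 162, 173, 203 and 198 CPM, 15.7-fold above AdAC direct (log2 3.97 ± 0.25, edgeR adjusted p = 9.22e-13), whereas neoAC CellC, at 117, 60.8, 66.1 and 90.1 CPM, overlapped with neoAC direct. The same 8 markers were at 826 to 1012 CPM in AdAC CellC and 13.9 to 17.8 CPM in AdAC direct. In neonatal cells they were at 824 to 1097 CPM cultured and 304 to 505 CPM direct, while Mest had means of 83.6 and 105 CPM there. The lower Mest of AGES than of neoAC CellC (-0.56 ± 0.22, edgeR adjusted p = 0.0254) had overlapping libraries and was not called without AGES replicate 3 or 4 or neoAC CellC replicate 1 or 4 (log2 -0.34 to -0.51), without the filter on low counts (-0.52) or in the fits of those groups alone (-0.59, and -0.62 with the block). Mest shares 912 exon bases (23.1%) with Copg2 on the opposite strand, which was at 49.1 to 71.2 CPM in every group. Whether counting used the strand is not stated, so the effect of these shared bases on the Mest values is uncertain in every group. The order was NSC, AdAC CellC, neoAC direct, neoAC CellC, AGES, AdAC direct, and neoAC direct and neoAC CellC alone did not pass the test, though they did with the block (-0.41) and without neoAC CellC replicate 1 (-0.54).

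Peg3 (chr7:6703892-6730431, minus strand) encodes a zinc finger protein of the cell death and growth pathways, and was the only gene of the 10 whose means in NSC and AGES were both above those of all primary groups. AGES had 323, 349, 255 and 258 CPM and NSC 271, 144, 234 and 322 CPM, which overlap (0.29 ± 0.15, edgeR adjusted p = 0.0944). NSC replicate 2 lay below the AdAC direct libraries. Among primary astrocytes AdAC direct came first, at 156, 160, 159 and 158 CPM, before neoAC direct at 113, 99.9, 97.4 and 118 CPM. Culture lowered Peg3 at both ages, to 61, 64.2, 59.2 and 67.6 CPM in neoAC CellC (1.70-fold, log2 -0.76 ± 0.15, edgeR adjusted p = 9.36e-05) and to 68.5, 79.8, 80.2 and 78.3 CPM in AdAC CellC (2.06-fold, log2 -1.04 ± 0.15, edgeR adjusted p = 9.68e-07). The interaction of culture and age, not called in the fit of all 6 groups, was called in the fit of the compared groups alone, with and without the replicate block (0.28 in both). Its order was AGES, NSC, AdAC direct, neoAC direct, AdAC CellC, neoAC CellC, in which the first pair and the last pair did not pass the test. AGES and NSC were called different by DESeq2, with its size factors in edgeR (log2 0.37 in both) and without NSC replicate 4 (0.45). Over 31 alternatives this difference ran from 0.10 to 0.45. Both cultures, whose libraries did not overlap, were called different in the fits of those groups alone (-0.19, with and without the block) and without NSC replicate 2 (-0.28).

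Plagl1 (chr10:13060504-13131694, plus strand) encodes a zinc finger transcription factor that is known to bind other imprinted genes, Igf2 and H19 among them. It was the steadiest gene of the group in primary astrocytes, with group means from 41.3 ± 2.11 CPM in neoAC direct to 63.0 ± 2.37 CPM in neoAC CellC (SD, n = 4). NSC had 12.3, 7.19, 8.15 and 11.9 CPM and AGES 16.3, 18.6, 9.13 and 14.9 CPM. These overlap, but the rise passed the test (0.58 ± 0.16, edgeR adjusted p = 0.00282). AGES had 4.27-fold less Plagl1 than neoAC CellC and 4.12-fold less than AdAC CellC. In the order neoAC CellC, AdAC CellC, AdAC direct, neoAC direct, AGES, NSC, the first 3 did not differ between neighbours.

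Nnat, Grb10 and Ndn were the remaining genes that were low in NSC and AGES. Nnat (chr2:157560078-157562522, plus strand), which encodes a small membrane protein of the developing brain, lies inside an intron of Blcap without sharing exon bases, and belongs to the astrocyte genes that the study chose itself. It was at 988, 889, 845 and 889 CPM in AdAC direct and 563, 598, 586 and 474 CPM in neoAC direct, so the adult level was 1.63-fold higher (log2 -0.70 ± 0.12 for neonatal minus adult, edgeR adjusted p = 6.85e-06). Cultured neonatal cells kept 243, 242, 237 and 197 CPM, but cultured adult cells only 23.2, 25.2, 25 and 28.3 CPM, 35.5-fold below AdAC direct (log2 -5.15 ± 0.14, edgeR adjusted p = 4.17e-20). Nnat and the summed astrocyte markers moved together in that comparison, and the part of cell composition in it was not tested. In NSC it was 0.88, 1.46, 0.70 and 0.735 CPM and in AGES 0.624, 0.899, 0.769 and 1.15 CPM, with 16 to 48 counts a library. AGES had 267-fold less Nnat than neoAC CellC. The astrocyte markers of AGES summed to more than in any primary group, 55369 to 60311 CPM, of which Gfap made up most. The part of cell composition in this difference was not tested either. The order was AdAC direct, neoAC direct, neoAC CellC, AdAC CellC, NSC, AGES, and the last 2 alone did not differ. Per kilobase of exon, Nnat in AdAC direct had the highest level of all 10 genes in any group, 494 CPM per kb, before 304 CPM per kb in neoAC direct and 253 CPM per kb of Mest in NSC.

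Grb10 (chr11:11930508-12038683, minus strand) encodes an adaptor that binds insulin and IGF1 receptors and restrains their signal. It was 252, 190, 198 and 168 CPM in AdAC CellC and 4.29, 3.46, 3.83 and 6.03 CPM in AdAC direct, a 45.9-fold increase (log2 5.51 ± 0.19, edgeR adjusted p = 4.69e-18). Neonatal cells lay between these groups whether cultured or not, at 23.8, 28.3, 19 and 32.6 CPM in neoAC CellC and 37.8, 33.4, 33.9 and 31.7 CPM in neoAC direct. Directly isolated neonatal cells thus had 7.77-fold more than adult ones, and cultured neonatal cells 7.80-fold less. NSC had 1 to 6 counts a library and AGES 0 to 3, the latter at the floor, which is at least 2027-fold below AdAC CellC. In the order AdAC CellC, neoAC direct, neoAC CellC, AdAC direct, NSC, AGES, NSC and AGES alone did not differ.

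Ndn (chr7:62346569-62350262, plus strand) encodes necdin, a protein of the MAGE family that holds back cell division in neurons. It was 106, 160, 180 and 125 CPM in neoAC direct and 46.7, 45.8, 44.6 and 44.2 CPM in AdAC direct, 3.15-fold lower in the adult (log2 1.65 ± 0.17, edgeR adjusted p = 4.86e-09). Cultured cells of both ages overlapped, at 138, 70.7, 135 and 134 CPM in neoAC CellC and 97.5, 106, 80.6 and 95.0 CPM in AdAC CellC (0.33 ± 0.16, edgeR adjusted p = 0.0813), though DESeq2 called it (log2 0.43), as did edgeR with both other scalings (0.43 and 0.41) and without neoAC CellC replicate 2 (0.52). NSC and AGES had 2 to 8 counts a library, and AGES had 590-fold less than neoAC CellC. The order was neoAC direct, neoAC CellC, AdAC CellC, AdAC direct, AGES, NSC, in which the first 3 and the last 2 did not pass the test between neighbours. Without neoAC direct replicate 1, however, neoAC direct and neoAC CellC did pass (-0.38). Their difference ran from -0.38 to -0.029 over 31 alternatives.

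Summed markers of endothelial cells, pericytes and choroid plexus were lower in NSC and AGES than in every primary group, which was not so for fibroblast markers. The sum of 8 meningeal and perivascular fibroblast markers was 1196 to 1662 CPM in AdAC CellC and 94.7 to 112 CPM in AdAC direct, and 549 to 846 CPM in neoAC CellC and 264 to 372 CPM in neoAC direct. In AGES it was 107 to 152 CPM, mostly from Ogn and Islr, with 5 of the 8 genes under 1 CPM and 2 of them at the floor. Of 8 pericyte and smooth muscle markers, whose sum was 896 to 1062 CPM in AdAC CellC and 465 to 501 CPM in AdAC direct, Acta2 alone gave 813 CPM in AdAC CellC. The 5 ependymal markers summed to 1531 to 1960 CPM in neoAC CellC and 146 to 220 CPM in neoAC direct. In adult cells they summed to 250 to 358 CPM cultured and 1294 to 1486 CPM direct. With culture they thus moved in the same direction as Dlk1 at both ages. The order of the groups differed, however. The ependymal sum was higher in AdAC CellC than in neoAC direct, whereas Dlk1 was lower, with means of 1.12 and 3.18 CPM. The 7 endothelial markers were at 71.6 to 299 CPM in neoAC direct and 8.56 to 12.02 CPM in neoAC CellC, where 4 of them were under 1 CPM. The 6 choroid plexus markers were at 591 to 1250 CPM in neoAC direct and 114 to 326 CPM in AdAC direct, with Ttr at 960 and 132 CPM. In cultures they were at 457 to 1381 CPM in neoAC CellC, which overlaps with neoAC direct, and at 269 to 448 CPM in AdAC CellC. Igf2 was 4.23-fold lower in neoAC CellC than in neoAC direct. The 6 neural stem cell markers were at 6001 to 7765 CPM in neoAC direct, 495 to 567 CPM in AdAC direct, 1719 to 2665 CPM in neoAC CellC and 1762 to 2145 CPM in AdAC CellC. The 8 neuronal markers were higher in cultures, at 168 to 241 CPM against 48.2 to 60.6 CPM in adult and 106 to 124 CPM against 45.5 to 55.7 CPM in neonatal cells. The part of these cells in the levels of H19, Igf2, Dlk1, Mest and Grb10 was not tested.

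**Figure D4:**
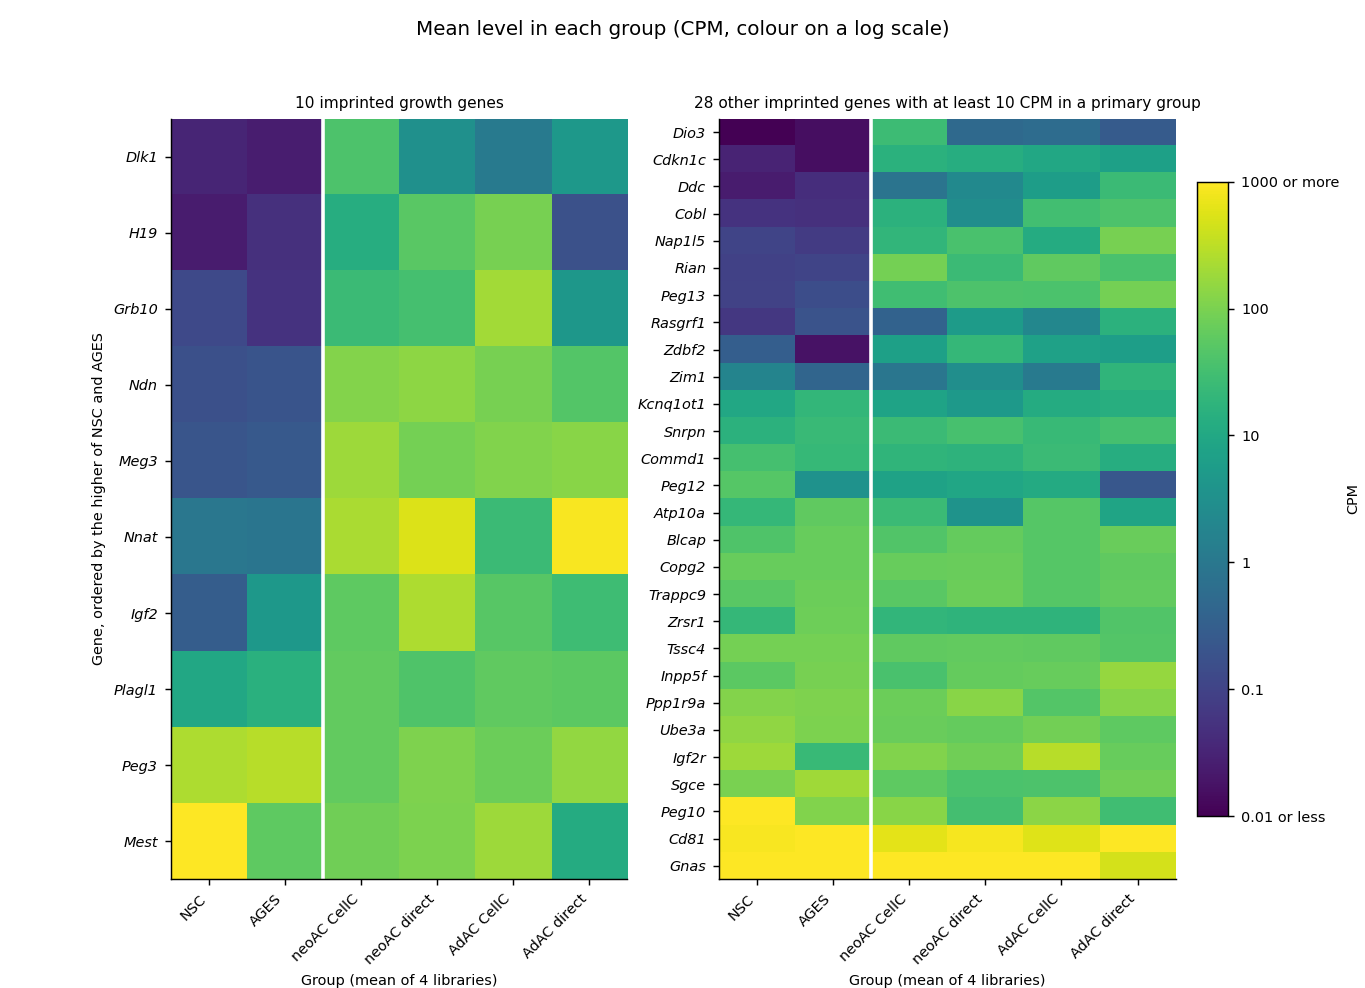
Mean CPM of 4 libraries in each of the 6 groups, as colour on a log scale, for the 10 genes (left) and for 28 other imprinted genes with at least 10 CPM in a primary group (right), ordered by the higher of NSC and AGES. The upper rows of both panels, 6 genes on the left and 9 on the right, are under 1 CPM in NSC and AGES, while Gnas, in the bottom row, has its lowest mean in AdAC direct at 485 CPM.

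Some other imprinted genes were nearly silent in NSC and AGES too. Of 48 other imprinted genes, 43 were tested and 28 reached 10 CPM in a primary group. Under 1 CPM in both NSC and AGES were 9 of these 28, against 10.4% of all such genes, namely Cdkn1c, Rian, Dio3, Ddc, Cobl, Nap1l5, Rasgrf1, Zdbf2 and Peg13. Rian, a non-coding RNA downstream of Meg3, had 91.3 ± 14.9 CPM in neoAC CellC and 0.106 ± 0.0450 CPM in AGES, and Cdkn1c, a cell cycle inhibitor in the cluster next to H19 and Igf2, was at least 158-fold lower in AGES than in neoAC CellC. Dio3, which inactivates thyroid hormone and lies at the far end of the Dlk1 cluster, resembled Dlk1 in that it reached 27.0 ± 6.73 CPM in neoAC CellC but 0.503 ± 0.140 CPM in neoAC direct and 0.590 ± 0.319 CPM in AdAC CellC. The other 19 of the 28 were at 1 CPM or more in NSC, in AGES or in both. Of the 43, 16 were higher and 19 lower in AGES than in neoAC CellC, near the 34.1% and 40.5% of all genes (median -1.04 against -0.07), and 16 were higher and 22 lower than in AdAC CellC, near 31.0% and 45.2% (median -1.33 against -0.23). Expressed in stem cells were Peg10, which fell from 1199 ± 168 CPM in NSC to 115 ± 46.8 CPM in AGES, and Igf2r, the receptor that clears Igf2, which fell from 185 ± 32.5 to 23.0 ± 5.20 CPM. By age in direct isolates, 18 of the 43 were higher and 16 lower in neonatal cells, near the 35.0% and 36.4% of all genes, with a median log2 difference of 0.14 against 0.00. In cultures 11 were higher and 15 lower, where 28.5% and 35.2% of all genes were (median -0.07 against -0.08).

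Most measured genes of the IGF pathway around Igf2 were higher in neonatal than in adult cells when directly isolated, and lower when cultured. Of 19 tested genes of IGF and insulin signalling, 14 were higher and 2 lower in neoAC direct than in AdAC direct, where 35.0% and 36.4% of all genes were, with a median log2 difference of 1.41 against 0.00 for all genes. Igf2bp3, which binds Igf2 mRNA, was at 13.4 ± 1.87 against 0.317 ± 0.0737 CPM (log2 5.39 ± 0.42), and the binding protein Igfbp2 at 872 ± 199 against 165 ± 22.1 CPM (2.40 ± 0.22). Dividing-cell markers were also higher in neoAC direct, at 304 to 505 against 13.9 to 17.8 CPM. So were fibroblast markers (264 to 372 against 94.7 to 112 CPM) and neural stem cell markers (6001 to 7765 against 495 to 567 CPM). Oligodendrocyte lineage and ependymal markers were lower there. The part of all these cells in the age difference was not tested. Between cultures 3 of the 19 genes were higher and 13 lower in neonatal cells, against 28.5% and 35.2% of all genes (median -0.99 against -0.08). Among the lower were Pappa, a protease that frees IGF from its binding proteins (log2 -3.63 ± 0.26), and Igf1r (-1.37 ± 0.10). With culture of adult cells 16 of the 19 rose and 2 fell, against 38.8% and 39.2% of all genes (median 2.35 against 0.00), led by Igfbp3 at 818 ± 124 against 2.95 ± 0.671 CPM. The fibroblast markers given above rose in the same comparison, and the sum of 8 markers of dividing cells was 826 to 1012 CPM in AdAC CellC against 13.9 to 17.8 CPM in AdAC direct. The part of these cells in the IGF list was not tested. In neonatal cells 8 rose and 5 fell, against 34.4% and 31.3% of all genes (median -0.07 against 0.04). AGES had 13 of the 19 lower and 2 higher than neoAC CellC, where 40.5% and 34.1% of all genes were (median -2.11 against -0.07).

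The enzymes and factors that keep imprints were measured in NSC and AGES. Of 15 such genes with at least 10 CPM in a primary group, 0 were under 1 CPM in both NSC and AGES, which is near the 10.4% of all such genes and is not read as a result about them. Of the 16 tested, 3 were higher and 9 lower in AGES than in NSC, against 31.7% and 34.0% of all genes (median -0.41 against 0.00), and 12 were higher and 0 lower in NSC than in neoAC CellC, against 39.0% and 41.6% (median 1.08 against -0.04). Dividing-cell markers were at 3450 to 3537 CPM in NSC, 824 to 1097 CPM in neoAC CellC and 13.2 to 16.6 CPM in AGES. The part of dividing cells in this list was not tested. Uhrf1 and Dnmt1, which copy DNA methylation at replication, were at 414 ± 66.2 and 435 ± 31.7 CPM in NSC and at 2.46 ± 0.732 and 73.6 ± 9.46 CPM in AGES, a fall shared with the dividing-cell markers. Zfp57, which protects imprints from demethylation, was at 27.7 ± 2.78 CPM in AdAC CellC, 0.493 ± 0.164 CPM in AdAC direct and 8.49 ± 0.797 CPM in neoAC CellC. The list of the fetal growth programme outside imprinting shares Igf2bp1 and Igf2bp3 with the IGF list, which shares Igf2r with the other imprinted genes. Results of these lists are therefore not independent. Of 8 tested genes of the fetal growth programme, all 8 were higher in neoAC direct than in AdAC direct (median 2.68 against 0.00), where 35.0% of all genes were. With culture in adult cells 7 rose, where 38.8% of all genes did. By age in cultures 2 were higher and 2 lower, against 28.5% and 35.2% of all genes (median -0.14 against -0.08), and with culture of neonatal cells 3 rose and 4 fell, against 34.4% and 31.3% (median -0.40 against 0.04). Dividing-cell markers were at 304 to 505 CPM in neoAC direct and 13.9 to 17.8 CPM in AdAC direct. In cultures they were at 824 to 1097 CPM (neonatal) and 826 to 1012 CPM (adult). Neural stem cell markers were at 6001 to 7765 CPM in neoAC direct, 495 to 567 CPM in AdAC direct and 1762 to 2145 CPM in AdAC CellC. The part of these cells in the fetal growth list was not tested. Hmga2, a chromatin protein of fetal cells, was at 86.9 ± 8.66 CPM in AdAC CellC and at the floor in AdAC direct, at least 933-fold apart, and had a mean of 0.943 CPM in neoAC CellC.

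Across the 24 libraries, other genes were searched for patterns like those of the 10, by Pearson's r of log2 CPM over 12232 tested genes with a mean of at least 5 CPM. The libraries of a group share their condition, so r is a description of 6 group levels more than of 24 independent points. The closest genes were Ptx3 for H19 (r = 0.984), Vcam1 for Igf2 (0.986), Msrb2 for Dlk1 (0.984), Plxdc2 for Meg3 (0.997), Paqr7 for Nnat (0.997), Stmn2 for Grb10 (0.989) and Saysd1 for Ndn (0.993). The second for Dlk1 was Deup1 (0.978), a gene of multiciliated cells. For Mest the closest was Tfdp1 (0.984), which encodes a cell cycle regulator. Peg3 had the least close partner, a pseudogene named Tmem181b-ps (0.951), and Plagl1 had Galk2 (0.977).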

How the data were processed

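The deposited file holds raw gene counts, which the authors made from stranded paired-end mRNA libraries with STAR 2.7.3a and featureCounts 2.0.1 on Gencode vM12 (GRCm38); whether counting used the strand or read pairs is not stated. Reads with up to 20 alignments were kept in mapping. No option for such reads is given for the counting, so the counts of near-identical copies are uncertain. Symbols and positions came from Gencode vM21, which matched 49412 identifiers (99.48%). The members and gene lists were chosen with earlier results of these data known.

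Genes were filtered with filterByExpr and all 6 groups were fitted together with edgeR 4.0.16 (R 4.3.3, limma 3.58.1) by TMM scaling and the quasi-likelihood test, with Benjamini-Hochberg adjustment over 19691 genes and a threshold of 0.05. Fold values are ratios of mean CPM; against a group with at most 3 counts in each library the level of 3 counts was used. All 10 genes are described. From each list, up to 6 genes with the largest called difference per comparison, 10 CPM or more in either group and no overlap between libraries could be named; marker genes, the genes of the heat map caption and the marker sums were singled out after their values were seen. Alternatives were DESeq2 1.42.0, other scalings, no filter, a log2 difference over 1, the compared groups alone with and without a replicate block, and leaving out each library. The code was tested on simulated counts for the age comparison of direct isolates. False calls there made up 6.13% of the calls of edgeR and 17.1% of those of DESeq2. A difference called by DESeq2 but not by edgeR is thus less certain. Replicates are separate isolations or cultures, and no library pair agreed within sampling noise.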

Additional observations from a re-analysis of the deposited data

Results flagged for a closer look

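Within groups of 4, a library that stood apart from the others by Dixon's criterion was found in 7 of 60 combinations of gene and group, where chance gives about 1 in 20. These were H19 in NSC at 0.0978 CPM (3 counts against 0 in the other libraries), Igf2 in neoAC direct at 171 CPM, Meg3 in AGES at 0.390 CPM, Peg3 in AdAC CellC at 68.5 CPM, Mest in neoAC direct at 90.6 CPM, Nnat in neoAC CellC at 197 CPM and Ndn in neoAC CellC at 70.7 CPM.

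The culture effect differed between neonatal and adult astrocytes for 9 of the 10 genes by the edgeR interaction test, which called 68.6% of all tested genes. The difference, neonatal minus adult culture effect on the log2 scale, was -11.06 for H19, -2.92 for Igf2, 5.66 for Dlk1, 1.26 for Meg3, 0.49 for Plagl1, -4.30 for Mest, 3.88 for Nnat, -5.91 for Grb10 and -1.32 for Ndn.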

How the results depend on the processing

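Requiring an absolute log2 difference over 1 reduced the called genes from 10 to 5 by age in direct isolates and from 8 to 5 by culture of neonatal cells, where the share of all tested genes called went from 71.4% to 39.1% and from 65.7% to 32.6%. With each library left out in turn, the number of genes called was 9 to 10 by age in direct isolates, 6 to 7 by age in cultures, 7 to 8 by culture of neonatal cells, 8 by culture of adult cells, 3 to 4 between AGES and NSC, 9 to 10 against neoAC CellC, 10 against AdAC CellC and 8 to 9 for the interaction. Directions turned only in differences that were not called. With each library left out in turn, Igf2 between cultures ran from -0.075 (without neoAC CellC replicate 2) to 0.43. Between AGES and NSC, Dlk1 ran from -0.73 to 0.18 (without NSC replicate 1; 0.03 without AGES replicate 4), Meg3 from -0.073 (without AGES replicate 1) to 0.31 and Nnat from -0.29 to 0.17 (without NSC replicate 2). The cause was not tested. The replicate numbers are not stated to mark paired samples. Correlations of same-numbered deviations ran from -0.0953 to 0.106, which shows no pairing but cannot exclude it. With the replicate number as a block in the compared groups, 10, 7, 9, 9, 3, 9, 10 and 10 genes were called in the order above, against 10, 7, 8, 9, 3, 9, 10 and 10 in the same groups without the block. Differences between NSC and AGES in H19, Dlk1, Meg3, Grb10 and Ndn rest on 0 to 10 counts a library and could not be resolved at this depth. Scaling by library size alone moved the median log2 difference of all genes to -0.44 against AdAC CellC, to -0.37 against neoAC CellC and to 0.27 by culture of neonatal cells.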
